A study of Mus musculus with 14 samples.

Results

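The mitochondrial genome is a small circular molecule that carries 13 protein genes, 2 rRNA genes and a set of tRNA genes, and every gene row whose name begins with mt- was taken as a member. The 36 members, 13 protein genes, 2 rRNA genes and 21 tRNA genes, were the same in both count tables, out of 32667 gene rows for spermatogonia and 36888 for spermatocytes. The annotation holds 37 such genes, and mt-Ts2 was not listed in either table. RNA was sequenced from sorted germ cells of Dnmt3C KO/KO mice and wild-type littermates on a C57Bl6/J background, with 3 libraries per genotype for spermatogonia (Spg) and 4 per genotype for spermatocytes (Spc). DNMT3C is a DNA methyltransferase of the male germ line that methylates promoters of young retrotransposons. Spg came from testes at postnatal day 14 and were sorted as DAPI-negative, β2-microglobulin-negative and EpCAM-positive cells. Spc came from mice older than 20 days and were sorted as live cells by Hoechst staining of their DNA. Germ cells of the KO arrest at the pachytene stage of meiosis, so the WT Spc sort held later stages that the KO sort lacks, and genotype and stage cannot be told apart in Spc.

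Both strands of the circle are transcribed into long RNAs that run through many genes, and most tRNA genes sit between the larger genes, where their excision frees the mRNAs and rRNAs. The protein genes encode core subunits of respiratory complexes I, III, IV and V, whereas the other subunits, the RNA polymerase POLRMT and all processing enzymes are encoded in the nucleus. Germ cells pass from glycolysis-rich spermatogonia to spermatocytes that rely more on respiration. Mitochondrial mRNAs carry short poly(A) tails, with mt-Nd6 as the known exception, and the libraries were made by poly(A) selection.

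The tails complete the stop codon of some of these genes. To show this, the last 30 bases of mt-Co1, which encodes its whole stop codon, stand beside those of mt-Co3, mt-Nd4 and mt-Cytb, which end in an encoded T alone. Sequences are from the GENCODE M21 transcripts on GRCm38, 5′ to 3′, and capitals mark the encoded part of the stop codon.
mt-Co1 (chrM:6843-6872, plus strand): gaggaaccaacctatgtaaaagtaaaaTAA
mt-Co3 (chrM:9361-9390, plus strand): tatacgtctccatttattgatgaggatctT
mt-Nd4 (chrM:11515-11544, plus strand): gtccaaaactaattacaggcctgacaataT
mt-Cytb (chrM:15259-15288, plus strand): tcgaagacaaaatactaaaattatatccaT

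The genes of the 2 subunits of ATP synthase, mt-Atp8 and mt-Atp6, share 43 bases. Their overlap is shown because a read within it could come from either gene, with the start codon of mt-Atp6 and the stop codon of mt-Atp8 in capitals.
mt-Atp8 and mt-Atp6 overlap (chrM:7927-7969, plus strand): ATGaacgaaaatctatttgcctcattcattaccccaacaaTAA

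Some of these genes have near-identical copies in the nuclear genome, annotated as pseudogenes, and counts were divided between gene and copy. The first bases of mt-Co2 are shown with those of its 2 copies, and capitals mark bases that differ from mt-Co2. Gm28661 did not differ in this window and Gm13341 differed at 2 bases.
mt-Co2 (chrM:7013-7072, plus strand): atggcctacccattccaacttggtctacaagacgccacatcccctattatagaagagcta
Gm28661 (chr1:24615506-24615565, minus strand): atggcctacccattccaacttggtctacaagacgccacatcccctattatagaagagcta
Gm13341 (chr2:22587903-22587962, minus strand): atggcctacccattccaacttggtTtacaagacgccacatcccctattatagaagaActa

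The 11 copies of at least 250 bases and at least 95% identity comprised 7 on chromosome 1, 3 on chromosome 2 and 1 on chromosome 13. On chromosome 1 between 24611535 and 24616197 lay Gm28439 (a copy of mt-Nd4), Gm10222 (mt-Nd4l), Gm28438 (mt-Nd3), Gm28437 (mt-Co3), Gm10925 (mt-Atp6), Gm28661 (mt-Co2) and Gm29216 (mt-Co1). Chromosome 2 held Gm13341 (mt-Co2), Gm13340 (mt-Co1) and Gm13339 (mt-Nd2), and chromosome 13 held Gm4076 (mt-Nd5). For mt-Atp6, the copy held 77.7 to 78.5% of the summed counts of gene and copy over the 4 groups. The corresponding shares were 60 to 62.9% for mt-Co2, 63.7 to 65.7% for mt-Co3, 57.5 to 63.4% for mt-Nd3 and 63.6 to 67.2% for mt-Nd4l. Copies of mt-Co1, mt-Nd2, mt-Nd4 and mt-Nd5 held at most 1.53%, and no annotated copy was found for mt-Nd1, mt-Atp8, mt-Nd6 or mt-Cytb. Copies without annotation were not searched for, so the level of mt-Atp8 is uncertain too. The deposited levels of mt-Atp6, mt-Co2, mt-Co3, mt-Nd3 and mt-Nd4l are therefore uncertain, and reads of gene and copy cannot be told apart where the sequences are identical.

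Library totals were 40555726 to 53323651 counts over genes and transposable element (TE) subfamilies, which puts the 95% Wilson interval of any mitochondrial share within ±0.00657 percentage points, for counting error only. Replicates 1 and 4 of each Spc genotype were far more alike than other replicates: the chi-square per degree of freedom between them was 14.5 in the KO and 19.7 in WT, against 172 to 343 and 218 to 382 for the other pairs. They differed by more than sampling noise and were kept as separate libraries, and the mitochondrial gene calls, the shares and the ratios that did not overlap are also given with these replicates combined, whereas the nuclear gene, copy and marker results are not. Dnmt3c RNA itself was not lower in the KO, with 116, 58 and 67 counts in Spg KO against 89, 65 and 53 in WT, and 55, 56, 52 and 57 in Spc KO against 28, 11, 19 and 25 in WT, so its level does not check the labels. The markers of pachytene spermatocytes separated the Spc groups, at 226 to 328 summed CPM in the KO and 6988 to 9075 in WT, where CPM is the usual scaling of counts to library size.

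Mitochondrial genes took a similar share of the Spg libraries of both genotypes and a larger share of the KO than of the WT Spc libraries. The share of library counts was 3.61, 3.07 and 2.73% in Spg KO and 3.75, 2.63 and 3.45% in Spg WT, and the groups overlapped. In Spc KO it was 4.15, 5.41, 3.78 and 3.97%, and in Spc WT 1.04, 0.955, 2.23 and 0.856%. Every Spc KO library lay above every Spc WT library, and WT replicate 3 stood apart from the other WT libraries.

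In Spg the means were 3.14 ± 0.444% in the KO and 3.28 ± 0.579% in WT (SD, n = 3 each; exact permutation test, two-sided, p = 0.8, smallest possible 0.1). In Spc they were 4.33 ± 0.738% and 1.27 ± 0.644% (SD, n = 4 each), a 3.41-fold difference with an exact permutation p = 0.0286, the smallest that this design allows. With replicates 1 and 4 of each genotype averaged, the fold was 3.21 and the exact permutation p = 0.1, and with libraries paired by number it was 0.125, each the smallest possible. Over the 4 comparisons made, the Benjamini-Hochberg adjusted value of the exact permutation p over separate libraries was 0.0762, above 0.05. From Spg to Spc the share was lower in WT, by 2.01 percentage points, and higher in the KO, by 1.19 percentage points, and neither pair of groups overlapped. Both differences had an exact permutation p = 0.0571, the smallest possible with 3 and 4 libraries, and 0.0762 after adjustment. With Spc replicates 1 and 4 averaged, both had an exact permutation p = 0.1, again the smallest possible. In bulk samples, fewer mitochondria-rich cells and less mitochondrial RNA per cell cannot be told apart.

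**Figure D1:**
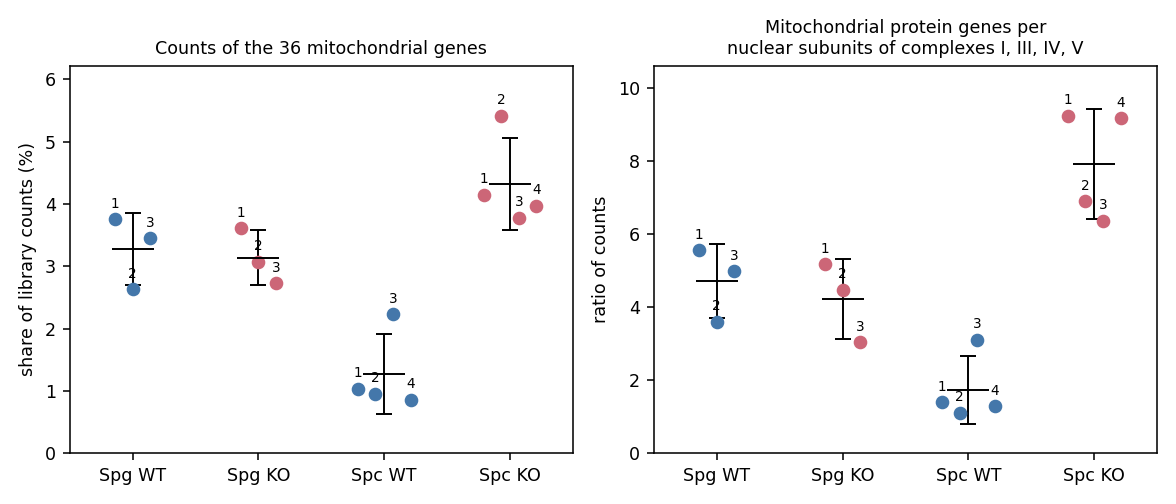
Share of library counts in the 36 mitochondrial genes in % (left) and the ratio of counts of the 13 mitochondrial protein genes to those of the nuclear subunits of complexes I, III, IV and V (right), for each library with its replicate number. Bars are mean ± SD over 3 Spg or 4 Spc libraries per genotype. In Spc all KO points lie above all WT points in both panels, and the Spg groups overlap.

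Protein genes held nearly all mitochondrial counts in every group, from 96.9 to 98.9% per library. Among all genes and TE subfamilies, mt-Co1 had the highest count in every Spg and Spc KO library and in Spc WT replicate 3, and ranked 2, 5 and 4 in Spc WT replicates 1, 2 and 4. The rRNA genes held 1.00 to 3.01% and the tRNA genes 0.0915 to 0.169%. In CPM per kilobase of gene, mt-Co1, the catalytic subunit of cytochrome c oxidase, was first in all 4 groups, at 8279 ± 1350 in Spg KO, 8544 ± 1620 in Spg WT, 11486 ± 1931 in Spc KO and 3493 ± 1676 in Spc WT (mean ± SD, n = 3, 3, 4 and 4). As deposited, mt-Atp8, an ATP synthase subunit, came second in each group. mt-Cytb, the only mitochondrial subunit of complex III, and mt-Nd1, of the membrane arm of complex I, came next, in either order. In Spg KO they stood at 3868 ± 730 and 3690 ± 213 CPM per kilobase, a gap smaller than their SDs. mt-Nd6, the one protein gene of the other strand, was last at 14.5 ± 7.80 in Spg KO, 17.5 ± 5.95 in Spg WT, 18.7 ± 5.57 in Spc KO and 3.82 ± 1.85 in Spc WT. When counts of the copies were added, mt-Atp6 moved from ninth to second in every group, at 5463 ± 228 CPM per kilobase in Spg KO and 6962 ± 1446 in Spc KO. mt-Co2 moved from 1591 ± 226 to 4197 ± 565 in Spg KO, which brought it beside mt-Atp8 at 4366 ± 207.

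**Figure D2:**
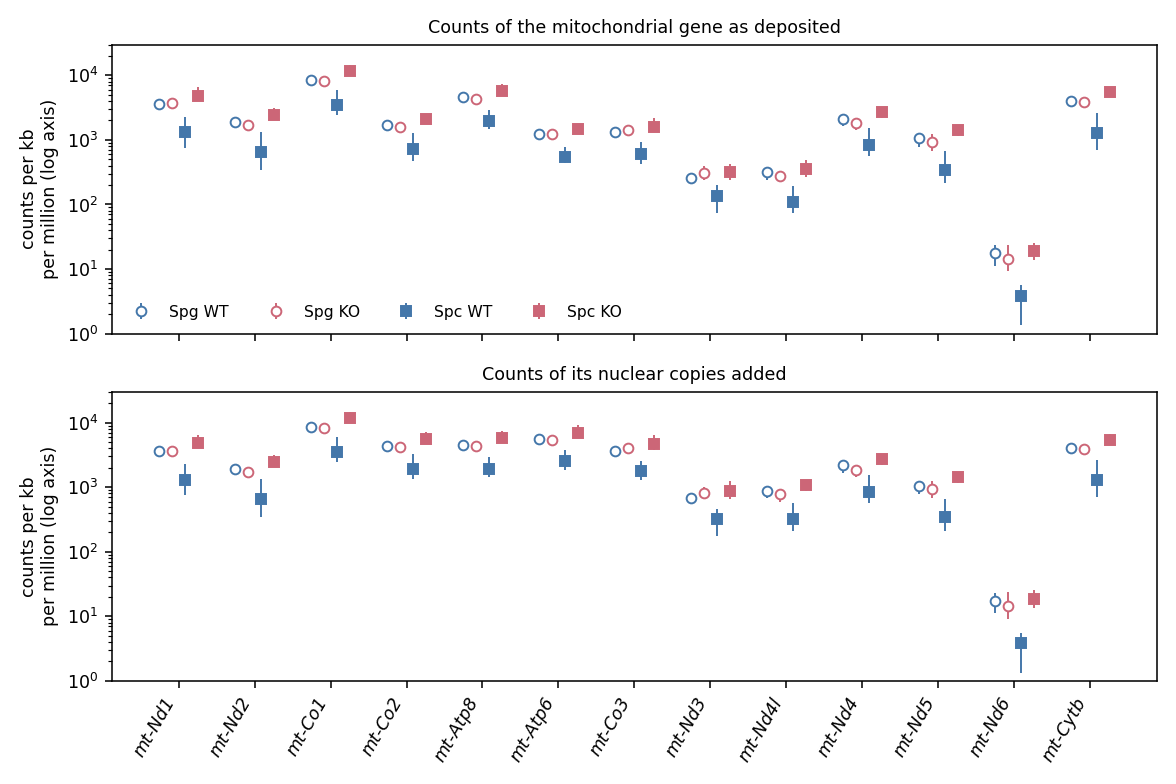
CPM per kilobase (log axis) of the 13 protein genes in their genome order, as deposited (top) and with counts of nuclear copies added (bottom). Symbols are group means and bars run from the lowest to the highest library (3 Spg and 4 Spc libraries per genotype). Adding the copies raises mt-Co2, mt-Atp6, mt-Co3, mt-Nd3 and mt-Nd4l, and mt-Nd6 stays lowest in both panels.

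In Spg, no mitochondrial gene was called between genotypes. Of the 36 members, 24 passed the filter on low counts and 0 had an adjusted p under 0.01 (edgeR quasi-likelihood test), where 0.107% of all 21580 features were called. None of the 24 had an unadjusted p under 0.05, DESeq2 called 0 as well, and KO and WT overlapped in all 24, whereas the groups did not overlap for 12.1% of all features. The median log2 fold change, KO against WT, was -0.09 over the 24 members and 0.03 over all features. Among the protein genes it ran from -0.29 ± 0.43 (SE) for mt-Nd6 to 0.26 ± 0.20 for mt-Nd3. mt-Co1 was at -0.06 ± 0.20, mt-Cytb at -0.07 ± 0.20 and mt-Nd1 at 0.00 ± 0.15. The rRNA genes were at 0.25 ± 0.21 for mt-Rnr1, of the small ribosomal subunit, and 0.02 ± 0.22 for mt-Rnr2, of the large one. mt-Ts1, a serine tRNA gene, had the lowest value, -0.64 ± 0.47, with 9.98, 3.53 and 5.74 CPM, here scaled by trimmed means, in the KO and 6.03, 8.61 and 15.4 in WT. None of these passed the test.

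In Spc, 13 of the 23 members that passed the filter rose in the KO and 0 fell (edgeR, adjusted p under 0.01), where 27.4% of all 22848 features rose. They comprised 11 of the 13 protein genes and the tRNA genes mt-Ts1 and mt-Tw, and neither rRNA gene passed. Of the 23, the tRNA genes mt-Tm, mt-Tk, mt-Tt and mt-Tg averaged under 100 counts in both stages, with 2 to 25 in the Spc WT libraries. None of these 4 was called, and they are left out of the counts that follow, a choice made after their values were seen. The other 19 all had a positive log2 fold change, with a median of 1.05 against 0.11 over all features. KO and WT did not overlap for 14 of the 19, whereas the lowest KO library exceeded the highest WT library for 33.7% of all features. Under scaling to library totals the median of all genes moved from 0.11 to 0.79, and the log2 fold change from 1.47 to 2.07 for mt-Cytb and from 0.71 to 1.38 for mt-Co3. The values that follow are CPM scaled by trimmed means within Spc.

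mt-Cytb stood at 5021, 5397, 4098 and 4866 CPM in the KO and at 1439, 1365, 3004 and 1202 in WT. The groups did not overlap, and WT replicate 3 was the highest WT library. The log2 fold change was 1.47 ± 0.32 (SE; adjusted p = 0.0021). Of complex IV, which passes electrons to oxygen, mt-Co1 stood at 14260, 15690, 11540 and 13860 CPM in the KO and 6861, 4551, 9200 and 5891 in WT. All KO libraries of mt-Co1 lay above WT, and it rose by 1.06 ± 0.27 on the log2 scale (adjusted p = 0.0055). mt-Co2, the copper-binding subunit, rose by 0.89 ± 0.24 (adjusted p = 0.0069). mt-Co3, a core subunit without redox centres, rose by 0.71 ± 0.20 (adjusted p = 0.0097), the smallest change among the 13 genes called. With copies added, mt-Co3 was at 0.70 and no longer called (adjusted p = 0.0134).

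The complex I genes, which encode the proton-pumping membrane arm, rose in 5 of 7 cases. mt-Nd1 stood at 3354, 4452, 3356 and 3297 CPM in the KO and 1331, 1475, 2170 and 1069 in WT, and it rose by 1.26 ± 0.26 on the log2 scale (adjusted p = 0.0017). mt-Nd5 stood at 2292, 2187, 1591 and 2146 CPM in the KO and 718, 477, 1211 and 659 in WT, and it rose by 1.42 ± 0.30 (adjusted p = 0.0018). Neither gene overlapped between the genotypes. mt-Nd2 rose by 1.31 ± 0.31, mt-Nd4l by 1.11 ± 0.26 and mt-Nd4 by 1.03 ± 0.27 on the log2 scale. mt-Nd3 had a log2 fold change of 0.60 ± 0.24 (adjusted p = 0.046) and overlapping groups. mt-Nd6 stood at 5.86, 7.70, 10.0 and 6.52 CPM in the KO and 2.72, 0.854, 2.89 and 3.67 in WT. The mt-Nd6 groups did not overlap, but its log2 fold change of 1.57 ± 0.46 had an edgeR adjusted p of 0.0107 and was not called. The complex V genes mt-Atp8 and mt-Atp6 rose by 0.88 ± 0.20 (adjusted p = 0.0029) and 0.78 ± 0.19 (adjusted p = 0.004).

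In Spc, 7 of the 11 nuclear copies rose and 0 fell, where 27.4% of all features rose, among them Gm28661 by 0.86 ± 0.24, against 0.89 for mt-Co2, and Gm28439 by 1.45 ± 0.30, against 1.03 for mt-Nd4. Gm10925, the copy of mt-Atp6, was at 0.78 ± 0.23 (adjusted p = 0.011) and not called. In Spg none of the 11 was called.

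Neither rRNA gene was called, and both overlapped between genotypes. mt-Rnr1 stood at 126, 285, 200 and 145 CPM in the KO and 191, 117, 98.4 and 107 in WT. Its log2 fold change was 0.56 ± 0.31 (adjusted p = 0.13). mt-Rnr2 stood at 218, 419, 296 and 269 CPM in the KO and 264, 151, 208 and 140 in WT. Its log2 fold change was 0.66 ± 0.27 (adjusted p = 0.051). These levels describe RNA that passed poly(A) selection.

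Among the tRNA genes, 4 had a mean count of at least 100 in either table. Counts of tRNA genes, too, describe RNA that passed poly(A) selection, and mature tRNA was not measured apart. mt-Ts1, on the strand of mt-Nd6 and overlapping the end of mt-Co1 on the other strand, had the largest log2 fold change of all members tested in Spc. Its gene is shown because of this.
mt-Ts1 (chrM:6870-6938, minus strand): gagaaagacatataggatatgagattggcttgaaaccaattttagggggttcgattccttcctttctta
It stood at 5.37, 10.6, 20.5 and 8.03 CPM in the KO and at 2.22, 1.56, 2.75 and 1.5 in WT, from 306, 680, 1221 and 443 counts against 81, 62, 136 and 48. Every KO library lay above every WT library, with KO replicate 3 highest, and the log2 fold change was 2.47 ± 0.47 (adjusted p = 0.0011). mt-Tw, a tryptophan tRNA gene downstream of mt-Nd2, rose by 1.12 ± 0.31 (adjusted p = 0.009). mt-Tl1 and mt-Ti, for leucine and isoleucine, were at 0.84 ± 0.33 and 1.05 ± 0.40 on the log2 scale, overlapped and were not called. The other 17 tRNA genes had mean counts of 0.875 to 40.5 per table. The 13 tRNA genes of the other strand summed to 1545, 2166, 1611 and 1634 counts in Spc KO and 440, 528, 1235 and 382 in Spc WT, without overlap. The 8 on the strand of mt-Nd6 summed to 333, 709, 1255 and 462 counts in Spc KO and 86, 70, 139 and 54 in Spc WT, and nearly all of these were mt-Ts1 counts, so the sum says little of the other genes on that strand.

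**Figure D3:**
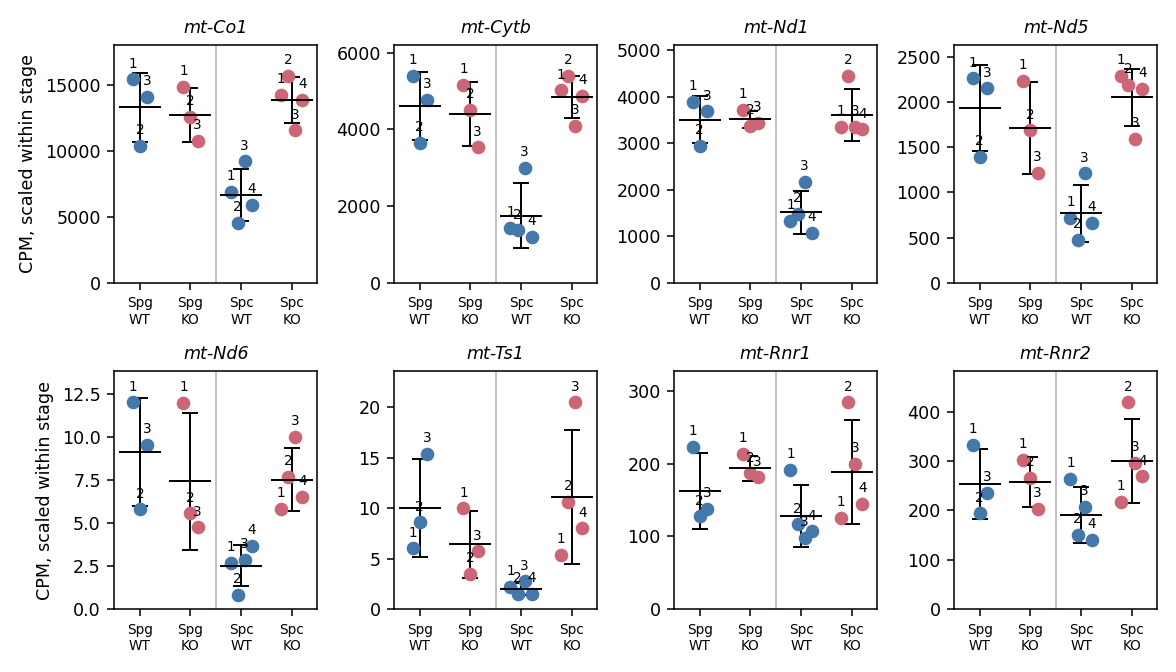
Scaled CPM of 8 mitochondrial genes in each library with its replicate number, and mean ± SD over 3 Spg or 4 Spc libraries per genotype. Scaling was done within each stage, so levels are compared left or right of the grey line. In Spc the KO points of mt-Co1, mt-Cytb, mt-Nd1, mt-Nd5, mt-Nd6 and mt-Ts1 lie above all WT points, and those of mt-Rnr1 and mt-Rnr2 overlap WT.

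The number of Spc calls depended on single libraries and on replicates 1 and 4. Leaving out KO replicate 1, 2 or 4 gave 7, 8 or 6 calls. Leaving out WT replicate 1, 2 or 4 gave 5, 4 or 4, and leaving out WT replicate 3 gave 14. With replicates 1 and 4 of each genotype summed, 1 gene was called, mt-Ts1 (adjusted p = 0.00466), while mt-Nd1 was at 1.19 (adjusted p = 0.0136) and mt-Cytb at 1.34 (adjusted p = 0.0175) on the log2 scale. mt-Ts1, mt-Nd1, mt-Nd5 and mt-Cytb were called in all 8 fits that left out 1 library.

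**Figure D4:**
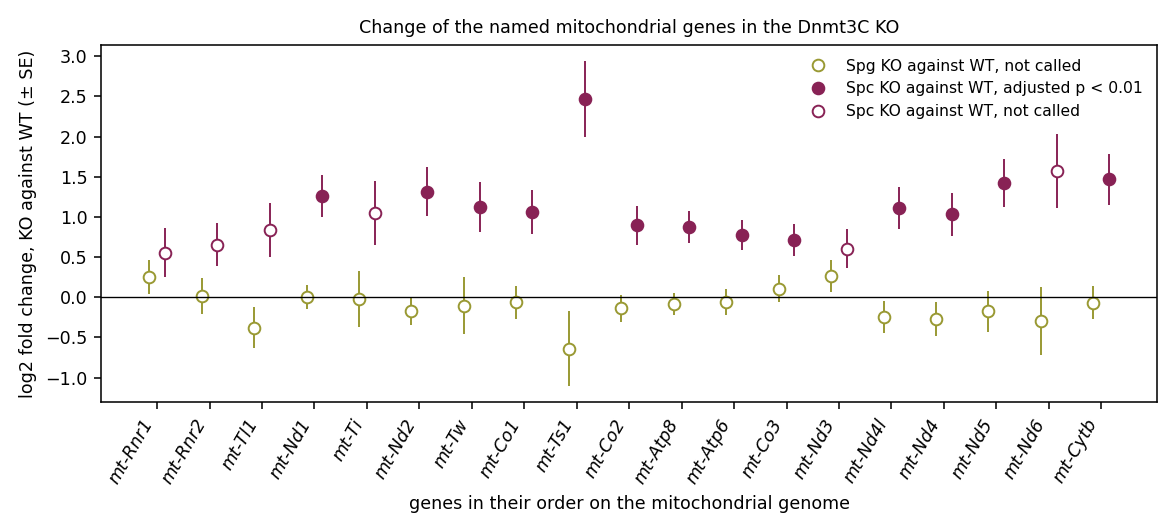
Log2 fold change, KO against WT, with its SE (edgeR) for the 13 protein genes, 2 rRNA genes and 4 tRNA genes with a mean count of at least 100, in genome order. Filled symbols have an adjusted p under 0.01. All Spc values lie above 0, from 0.56 for mt-Rnr1 to 2.47 for mt-Ts1, and no Spg value is called.

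The difference of the KO effect between stages was tested in 1 fit over all 14 libraries. The estimated KO effect was larger in Spc than in Spg for all 13 protein genes, of which 2 passed the test. The median difference was 1.20 against 0.19 over all features on the log2 scale, and mt-Nd3 had the smallest, 0.28 ± 0.37. Of 25 members tested 3 were called, near the share of all 25318 features called in that direction, 10.7%. The 3 were mt-Ts1 at 3.06 ± 0.72 (adjusted p = 0.0045), mt-Nd1 at 1.20 ± 0.32 (adjusted p = 0.0083) and mt-Atp8 at 0.91 ± 0.24 (adjusted p = 0.0089). mt-Cytb was at 1.48 ± 0.41 (adjusted p = 0.0107), mt-Nd5 at 1.55 ± 0.43 (adjusted p = 0.0104) and mt-Nd2 at 1.43 ± 0.40 (adjusted p = 0.0115), short of the threshold. With the replicate block, or with Spc replicates 1 and 4 summed, 1 member was called. The count was 0 without Spg KO replicate 2, Spg KO replicate 3 or Spg WT replicate 3, 1 without Spg WT replicate 1 or Spc WT replicate 1, 2 or 4, and 10, 11 and 12 without Spc KO replicate 3, Spg WT replicate 2 and Spc WT replicate 3.

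In the same fit, WT Spc were compared with WT Spg and KO Spc with KO Spg, and these share libraries with the comparisons above. In WT, all 13 protein genes had a negative log2 fold change, from -1.38 to -0.16, with a median of -0.59 against 0.06 over all features. A single member of 25 was called, where 22.5% of all features fell: mt-Ts1 at -1.83 ± 0.50 (adjusted p = 0.0052). That count was 0 without Spg WT replicate 3 or Spc WT replicate 1, 2 or 4, 12 without Spc WT replicate 3, 13 without Spg WT replicate 2, and 5 to 8 without any 1 of the Spg KO or Spc KO libraries. In the KO, all 13 had a positive one, from 0.13 to 0.70, with a median of 0.48 against 0.05. None of the 25 members was called by edgeR or DESeq2, where 2.99% of all features were called, and 7 had an unadjusted p under 0.05.

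Within the mitochondrial counts, the shares of mt-Cytb, of complex IV and of the ATP synthase genes varied less among the Spc KO than among the Spc WT libraries. mt-Cytb made up 14.8, 14.3, 14.7 and 14.7% of protein gene counts in Spc KO and 9.80, 11.9, 13.7 and 9.67% in Spc WT. The groups did not overlap, and WT replicates 1 and 4 were lowest. With counts of the copies added, 5 of the 9 ratios examined did not overlap between Spc genotypes, against 3 as deposited. As deposited, the complex IV genes made up 47.9, 48.1, 47.9 and 47.9% in Spc KO and 54.7, 48.6, 49.3 and 55.2% in Spc WT, again without overlap and with WT replicates 1 and 4 farthest from the KO. mt-Atp8 and mt-Atp6 together made up 5.03, 5.10, 5.16 and 5.19% in Spc KO and 6.88, 7.06, 5.14 and 7.08% in Spc WT, where WT replicate 3 fell among the KO libraries. With counts of the copies added, this share was 11.1, 11.77, 11.4 and 11.2% in Spc KO and 15.2, 14.6, 11.84 and 14.6% in Spc WT. The groups no longer overlapped, but WT replicate 3 lay just above KO replicate 2. Such shares do not depend on library scaling. The ratio of KO to WT geometric means was 1.31 for the mt-Cytb share and 0.924 for complex IV, each with an exact permutation p = 0.0286, the smallest possible, and 0.229 after adjustment over the 36 tests made. With replicates 1 and 4 averaged, both had an exact permutation p = 0.1, the smallest possible.

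Ratios that involve rRNA, tRNA or the other strand overlapped between Spc genotypes. rRNA genes stood at 1.01, 1.86, 1.78 and 1.25% of protein gene counts in Spc KO and 3.10, 2.33, 1.40 and 1.99% in Spc WT. mt-Nd6 stood at 0.0172, 0.0204, 0.0359 and 0.0197% of the heavy-strand protein genes in Spc KO and 0.0185, 0.00744, 0.0132 and 0.0296% in Spc WT. mt-Rnr1 stood at 57.9, 67.9, 67.5 and 54.0% of mt-Rnr2 in Spc KO and 72.5, 77.7, 47.4 and 76.4% in Spc WT. The exact permutation p was 0.143 for the first ratio, 0.314 for the second and 0.543 for the third. In Spg, 2 of the 9 ratios did not overlap, mt-Rnr1 per mt-Rnr2, with 70.6, 70.2 and 89.6% in the KO and 67.0, 65.8 and 58.6% in WT, and the complex I genes per protein genes, with 31.2, 31.9 and 31.3% against 32.2, 32.5 and 33.1%. Each had an exact permutation p = 0.1, the smallest that 3 against 3 libraries allow.

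**Figure D5:**
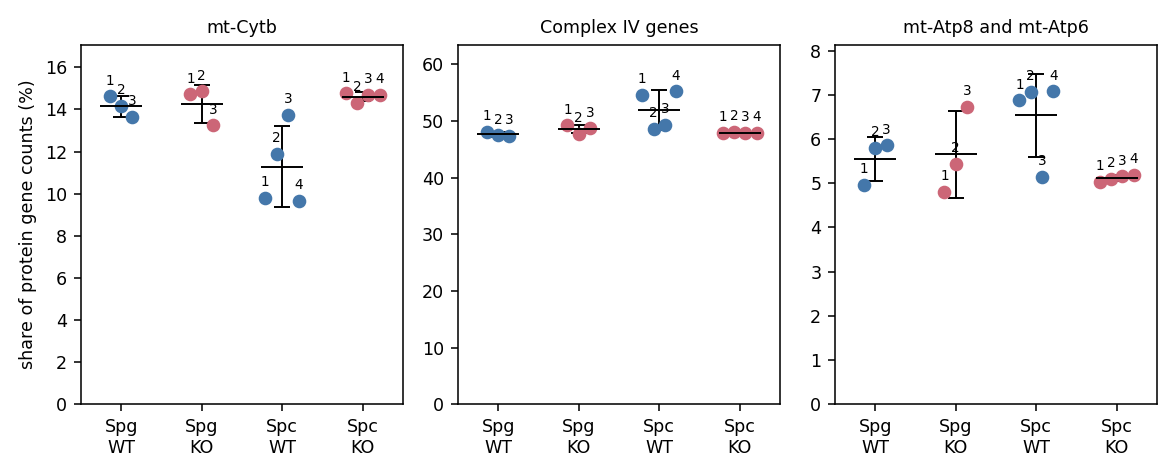
Share of the counts of the 13 protein genes, in %, taken by mt-Cytb (left), the 3 complex IV genes (middle) and mt-Atp8 with mt-Atp6 (right), for each library with its replicate number and mean ± SD over 3 Spg or 4 Spc libraries per genotype. Spc KO libraries lie close together, and Spc WT replicates 1 and 4 lie farthest from them for mt-Cytb and complex IV.

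Of the 71 nuclear subunits of complexes I, III, IV and V tested in Spc, 44 fell in the KO, 5 rose and 22 were not called, where 30.1% of all features fell and 27.4% rose. These calls depended on the scaling. Under library totals 19 of the 71 fell and 6 rose, where 21.7% of all features fell and 36.5% rose. The median log2 fold change of the 71 was then -0.39 in place of -1.12, and that of all features 0.79 in place of 0.11. Summed CPM scaled by trimmed means were 3682, 5467, 4390 and 3612 in the KO and 10510, 10300, 7048 and 9648 in WT, without overlap. The same sums per library total were 4449, 7687, 5825 and 4270 in the KO and 7182, 8365, 7071 and 6508 in WT, where KO replicate 2 lay above 3 of the WT libraries. Under library totals complex I counted 12 falls and 1 rise among 36 subunits, complex II no call and complex III 4 falls of 9. Complex IV then counted 2 falls and 4 rises of 11, and complex V 1 fall and 1 rise of 15. With trimmed means, complex I counted 25 falls and 1 rise among 36 subunits, complex II 4 falls of 4 and complex III 6 falls of 9. Complex IV counted 6 falls and 4 rises of 11, and complex V 7 falls of 15. The largest falls included Ndufa12 at -2.61 ± 0.27 and Ndufc1 at -2.58 ± 0.22 (complex I), Uqcrq at -2.58 ± 0.28 and Uqcrc1 at -2.38 ± 0.27 (complex III), Cox7a2 at -2.23 ± 0.28 (complex IV) and Atp5j at -1.68 ± 0.22 (complex V) on the log2 scale. Of the 5 that rose, Ndufb11 at 2.86 ± 0.52 and Cox7b at 3.48 ± 0.55 lie on the X chromosome, which is silenced in pachytene spermatocytes. Of the 75 nuclear subunits of complexes I to V, 3 are X-linked, and Ndufa1 among these was not called. Cox6b1, Cox8a and Ndufa4, on other chromosomes, rose as well. Whether X-linkage had a part in these rises was not tested. Cox8a rose by 2.52 ± 0.45. In Spg none of the 75 was called. Counts of mitochondrial protein genes per count of the nuclear subunits of complexes I, III, IV and V were 9.23, 6.90, 6.36 and 9.17 in Spc KO and 1.40, 1.11, 3.10 and 1.29 in Spc WT. The groups did not overlap, the ratio of KO to WT geometric means was 4.94, and the exact permutation p = 0.0286 was 0.229 after adjustment. With replicates 1 and 4 averaged it was 0.1. In Spg the same ratio was 5.18, 4.48 and 3.04 in the KO and 5.56, 3.6 and 4.98 in WT, and the groups overlapped.

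Of 20 nuclear genes of mitochondrial DNA transcription and replication, 6 rose and 5 fell in Spc KO, near the shares of all features that rose (27.4%) and fell (30.1%). Under library totals 9 rose and 1 fell, where 36.5% of all features rose and 21.7% fell. Polrmt, the RNA polymerase, was at -0.42 ± 0.24 (adjusted p = 0.144), and Tefm, its elongation factor, at -0.42 ± 0.29 (adjusted p = 0.214). Tfam, which packages and activates the mitochondrial genome, was at 1.11 ± 0.40 (adjusted p = 0.0285), and Tfb2m, the initiation factor, at 0.81 ± 0.24 (adjusted p = 0.0117), neither called. Polg, the DNA polymerase, fell by 0.98 ± 0.20 on the log2 scale, and Twnk, the helicase, was at 0.75 ± 0.27 (adjusted p = 0.0265). Top1mt, a mitochondrial topoisomerase, and Primpol rose, by 2.46 ± 0.60 and 2.33 ± 0.61. Mterf3 and Mterf4 fell, by 1.49 ± 0.23 and 1.54 ± 0.24.

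Of 18 genes of mitochondrial RNA processing and stability, 3 rose and 4 fell in Spc KO, both shares below those of all features. Under library totals 5 rose and 3 fell, where 36.5% of all features rose and 21.7% fell. Slirp, which with Lrpprc binds and stabilises mitochondrial mRNAs, fell by 1.95 ± 0.26, and Lrpprc was at -0.06 ± 0.19 (adjusted p = 0.774). Mtpap, the poly(A) polymerase, was at -0.15 ± 0.27 and Elac2, which cuts tRNA 3′ ends, at -0.56 ± 0.25, neither called. Hsd17b10 and Trmt10c, partners in the enzyme that cuts tRNA 5′ ends, rose by 2.87 ± 0.42 and 1.43 ± 0.35, and Hsd17b10 lies on the X chromosome. Rexo2, a mitochondrial exoribonuclease, fell by 2.19 ± 0.24. Mitochondrial ribosomal proteins counted 32 falls and 2 rises of 78, against 30.1% and 27.4% of all features, led by Mrpl39 at -2.84 ± 0.24 and Mrpl24 at -2.62 ± 0.24, while Mrpl23 and Mrps17 rose by 1.46 ± 0.38 and 0.88 ± 0.23. Under library totals they counted 12 falls and 6 rises, where 21.7% of all features fell and 36.5% rose. Their median log2 fold change was then 0.02 in place of -0.72, and that of all features 0.79 in place of 0.11.

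Of 8 regulators of mitochondrial biogenesis, 3 rose and 1 fell under library totals, where 36.5% of all features rose and 21.7% fell. With trimmed means 2 rose and 2 fell in Spc KO, again near the shares of all features. Pprc1 rose by 2.17 ± 0.53 and Gabpa by 1.77 ± 0.23, and Ppargc1a fell by 2.63 ± 0.64 and Esrra by 2.04 ± 0.32. Nrf1, a transcription factor for nuclear genes of mitochondrial proteins, was at 0.47 ± 0.24 (adjusted p = 0.106). Of 12 genes of mitochondrial mass, import and outer membrane, 2 rose and 5 fell, against 27.4% and 30.1% of all features: Vdac1 rose by 2.99 ± 0.53 and the chaperone gene Hspd1 by 2.92 ± 0.49, and Vdac2 fell by 2.62 ± 0.28 and Tomm22 by 1.98 ± 0.31. Under library totals these 12 genes counted 5 rises and 3 falls. All features turned the same way, with 36.5% risen and 21.7% fallen. In Spg none of the genes of these 5 lists was called.

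Markers of other cells moved with genotype in Spc. Their sums are given per library total, whereas the calls used trimmed means, where 27.4% of all features rose and 30.1% fell. Summed CPM per library total of 5 Leydig cell markers were 65.4 to 333 in the KO and 8.38 to 20 in WT, and all 5 rose. Macrophage markers were 25.9 to 152 against 1.70 to 5.03, with 5 of 5 risen, and peritubular markers 19.8 to 206 against 2.14 to 6.97, with 3 of 4 risen. Endothelial markers were 17.6 to 145 against 2.86 to 5.25, with 1 of 3 risen, and Sertoli markers 327 to 1010 against 77.3 to 424, with 0 of 6 risen. Erythroid markers were 1.23 to 10.2 against 0.999 to 6.28, with 0 of 2 tested risen. Spermatogonial markers were 387 to 1168 against 20.6 to 201, with 4 of 6 risen, and early meiotic markers 1303 to 2072 against 621 to 1550, with 3 of 6 risen and 1 fallen. Pachytene and spermatid markers fell, 6 of 6 and 5 of 5, and spermatid markers were at 2.88 to 10.3 in the KO against 35.2 to 983 in WT. Nuclear-retained RNAs were at 160 to 420 against 54.0 to 127, with 2 of 4 risen and 1 fallen, and their sums overlapped when scaled by trimmed means. Called under library totals, 2 of 6 Sertoli and 4 of 4 peritubular markers rose and no nuclear-retained RNA fell, where 36.5% of all features rose and 21.7% fell. WT replicate 3, with the highest mitochondrial share among WT Spc, was also highest there in the spermatogonial, early meiotic, spermatid, Sertoli, macrophage, endothelial and erythroid markers and in the nuclear-retained RNAs, and lowest in the pachytene markers. Its Sertoli markers stood at 424 CPM against 77.3 to 122 in the other WT libraries, and its nuclear-retained RNAs at 127 against 54 to 69.1. No marker was at 0 in all libraries of a Spc group, and the part of these cells and stages in the mitochondrial results was not tested. In Spg no marker was called, although the pachytene markers summed to 153 to 171 CPM in the KO and 277 to 1802 in WT, and Prm2 and Tnp2, both spermatid markers, were at 0 in all Spg WT libraries.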

How the data were processed

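RNA was measured in 14 libraries, 6 of Spg and 8 of Spc. The authors trimmed reads with cutadapt (version 4.0), aligned them with STAR (version 2.7.3a) to GRCm38 keeping up to 100 alignments per read, and deposited raw counts per gene and TE subfamily from TEtranscripts. The library kit marks strand and used 10 ng RNA and 13 PCR cycles. The authors' own fold changes and p-values (DESeq2) and TE tables were not used, and further Spg libraries were not analysed here. The Spg libraries numbered 3 here have columns numbered 4 in the deposited counts and are titled replicate 3.

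Each stage was fitted alone in edgeR 4.0.16 with R 4.3.3 (filterByExpr, TMM, quasi-likelihood test, Benjamini-Hochberg over all features, called under 0.01), and contrasts across stages came from 1 fit of features in both tables. DESeq2 1.42.0 was an alternative. Log2 fold changes are given ± SE, derived from the test statistic. On simulated data the fit missed many of the smaller changes, more of them in Spc than in Spg, so a gene not called in Spc is not shown to be unchanged. The alternative scalings of the nuclear lists were chosen after seeing the data. Shares and ratios were tested by exact permutation, two-sided. P-values measure the spread between these libraries, which may be partly technical. Nuclear copies were found by aligning mitochondrial to pseudogene transcripts of GENCODE M21 with a length limit lowered from 500 to 250 bases after the hits were seen, which added 3 copies.

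Named genes were the protein and rRNA genes, tRNA genes with a mean count of at least 100 in either table, 11 core nuclear factors, nuclear copies with a mean count of at least 100, Dnmt3c, and per list up to 2 called genes of the largest rise and fall, limited to mean counts of at least 100 with separate groups. The members and lists were chosen with earlier results of these data known. In Spg, deviations of same-numbered KO and WT libraries from their group means had r = 0.676, 0.176 and 0.249 for numbers 1 to 3. KO replicate 2 with WT replicate 3 had r = 0.318, and the other pairs of unlike number were negative. Only number 1 stood out, so whether the numbers pair the libraries is uncertain. With the block no mitochondrial gene was called there either, while calls over all features went from 23 to 155.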

Additional observations from a re-analysis of the deposited data

Results flagged for a closer look

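Of 58 groups of 4 Spc libraries examined, 11 held a library far from the other 3 (Dixon's criterion), and 7 of the 11 were in WT. Chance gives about 1 in 20 for independent libraries, but replicates 1 and 4 of each genotype are much alike and the 58 groups are genes and ratios of the same 8 libraries, so that rate need not hold here. In WT the library was replicate 3 each time. It was highest in the mitochondrial share (2.23%), in mitochondrial protein counts per nuclear subunit count (3.10) and in the CPM of mt-Nd2 (1370), mt-Nd4l (56.9), mt-Cytb (3000) and mt-Tl1 (20), and lowest in the share of mt-Atp8 and mt-Atp6 among protein genes (5.14%). In the KO, replicate 2 was highest for mt-Nd1 (4450 CPM) and for the share of complex IV among protein genes (48.1%). KO replicate 3 was lowest for mt-Nd4 (2260 CPM) and highest for mt-Nd6 per heavy-strand protein genes (0.0359%).

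For 3 of 25 genes the KO effect was called different between stages, tested as an interaction in edgeR. That is near the share of all features called in that direction, 10.7%. The count was 0 without Spg KO replicate 2, Spg KO replicate 3 or Spg WT replicate 3, and 1 with the replicate block or with Spc replicates 1 and 4 summed. On the log2 scale the KO effect was larger in Spc than in Spg by 3.06 for mt-Ts1, 1.20 for mt-Nd1 and 0.91 for mt-Atp8.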

How the results depend on the processing

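Every named member had a positive log2 fold change in Spc under every alternative run, but the number called varied. From 13, it was 20 under library totals, 20 at an adjusted p under 0.05, 4 with the replicate block, 1 with replicates 1 and 4 summed, 8 with these summed and WT replicate 3 left out (chosen after seeing the data), and 4 to 14 without 1 library. For the difference between stages, from 3, it was 9 with DESeq2, 5 with DESeq2 size factors, 13 under library totals, 8 without the filter, 1 with the replicate block, 1 with replicates 1 and 4 summed, 13 at 0.05 and 0 to 12 without 1 library. For WT Spc against WT Spg, from 1, it was 8, 3, 18 and 7 under the first 4 of these settings, 0 with replicates 1 and 4 summed, 11 at 0.05 and 0 to 13 without 1 library. In Spc the numbers did not pair the libraries (r = 0.0563, 0.188, -0.0316 and 0.105), and the contrasts of 1 genotype between stages could not be fitted with a block. Over all Spg features the calls were 23, and 155 with the replicate block, 538 with DESeq2 and 157 without the filter, with 0 mitochondrial genes among them each time.

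Ratios without overlap numbered 5 of 9 with copies added in Spc and in WT Spc against WT Spg. Without 1 library they numbered 2 to 5 in Spg, 3 to 6 in Spc and 3 to 7 between the WT stages. In Spg, values near 0 changed sign: mt-Nd1 was -0.005337 with DESeq2 and its size factors, -0.004502 with copies added and -0.004392 with copies of at least 500 bases (chosen after seeing the data), mt-Ti 0.04107 with the replicate block, and mt-Cytb per protein genes -0.007324 with copies added. Without 1 Spg library the KO minus WT share ran from -0.464 to 0.0965 percentage points, and log2 values from -0.128 to 0.243 for mt-Rnr2, -0.0949 to 0.0669 for mt-Nd1, -0.229 to 0.326 for mt-Ti, -0.347 to 0.0998 for mt-Tw, -0.199 to 0.0452 for mt-Co1, -0.172 to 0.0744 for mt-Atp6, -0.413 to 0.0218 for mt-Nd5, -0.196 to 0.0724 for mt-Cytb, -0.0187 to 0.0641 for mt-Cytb per protein genes and -0.350 to 0.0538 for mitochondrial protein genes per nuclear subunits. In Spc, tRNA per protein genes ran from -0.0743 to 0.203. Causes were not tested. Low counts limit what can be said of the rarer tRNA genes, and the number of libraries limits every permutation test.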
